A study of Mus musculus with 6 samples.

Results

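R-spondins, their receptors and the feedback genes around them were examined in TRAMP-C2 cells, a prostate cancer line from male C57BL/6 mice of the TRAMP model, in which a probasin promoter drives SV40 T antigen in the prostate. The set held 10 of the 54446 genes listed: the R-spondin genes Rspo1, Rspo2 and Rspo3, the receptor genes Lgr4 and Lgr5, the ubiquitin ligase genes Znrf3 and Rnf43, the feedback gene Axin2 and the ligand genes Wnt9a and Wnt5a. They were chosen by the fall of Rspo2 after cisplatin, which put it at rank 3 from the lowest log2 fold change among 4023 called genes averaging 100 normalised counts or more. The other genes were added for their place in the same pathway, with results of these data known. For these 10 genes, values of cisplatin against control are therefore given as descriptions with no p, as are all values of Rspo2. Genes outside the set were tested in all 3 contrasts.

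Cells without drug (control), cells given 2 µM oxaliplatin and cells given 2 µM cisplatin were harvested at 24 h, with 2 poly(A) RNA libraries in each of the 3 groups. All cells grew in the same medium with serum, insulin and dehydroisoandrosterone. The drugs are platinum complexes that form adducts on DNA. Cisplatin carries ammine and chloride ligands, and oxaliplatin a diaminocyclohexane and an oxalate ligand. The labels do not say whether replicates were separate cultures, so that p values measure the spread between these libraries, which may be technical, in a single cell line.

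Wnt proteins bind Frizzled receptors and LRP5 or LRP6 and so keep β-catenin from being degraded. ZNRF3 and RNF43 are membrane E3 ligases that remove Frizzled from the cell surface, and R-spondins, bound to LGR receptors, withdraw these ligases and thereby raise the response to Wnt. AXIN2, ZNRF3, RNF43 and LGR5 are themselves products of β-catenin target genes in many tissues, which makes the first 3 a negative feedback. WNT5A acts mostly through β-catenin-independent routes that use ROR2 and RYK. In the prostate, Wnt and R-spondin proteins are supplied largely by stromal cells.

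Total counts per library ran from 21345312 to 24041767, so that 3 counts, the limit that a count of 0 allows, correspond to 0.125 to 0.141 CPM (counting error only). Replicates correlated at 0.986 to 0.988 across genes, which are not independent, and their counts differed by more than sampling noise (mean chi-square per gene of 2.80 to 4.62). Of 7 epithelial markers 5 passed the count filter, led by Krt19, while Epcam had at most 2 counts and Krt5 had 0. Pbsn, a prostate secretory gene, had 0 counts in all libraries. All 6 mesenchymal markers were abundant, with a summed level of 5598 to 5936 TPM (counts scaled for exon length and for library) in control against 171 to 187 TPM for the epithelial list. In oxaliplatin cells these sums were 5318 to 5375 TPM and 184 TPM, and in cisplatin cells 4828 to 5066 TPM and 208 to 211 TPM. The mesenchymal markers went different ways. In control, oxaliplatin and cisplatin cells, Col1a1 had 2400, 1978 and 1808 TPM and Col1a2 1103, 800 and 713 TPM. Vim had 1487, 1599 and 1716 TPM and Thy1 39, 44.5 and 49.8 TPM. Acta2 had 684, 868 and 622 TPM and Pdgfrb 55, 56 and 37.7 TPM. The part of these marker differences in the results below was not tested. Leukocyte markers summed to at most 5.29 TPM and endothelial markers to at most 1.01 TPM, with Ptprc and Cd3e at 0 or 1 count. In bulk RNA, fewer cells of a kind and less RNA per cell cannot be told apart.

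Scaled for length, Wnt5a was the most abundant of the 10 genes in control cells, at 28.1 ± 0.606 TPM (SD, n = 2). Lgr4 followed at 13.8 ± 0.458 TPM and Wnt9a at 6.71 ± 0.245 TPM. Rspo2 (5.52 ± 0.0269 TPM) and Rspo3 (5.02 ± 0.261 TPM) stood close together, although their libraries did not overlap, and Znrf3 had 2.88 ± 0.438 TPM. Rspo1 was lower, at 0.697 ± 0.0301 TPM. Axin2 (0.0928 TPM), Lgr5 (0.0440 TPM) and Rnf43 (0.0200 TPM) were last, and their libraries overlapped with those of the neighbour in this order. TPM here rests on the union of annotated exons, so a gene read mainly as a short transcript is understated.

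**Figure D1:**
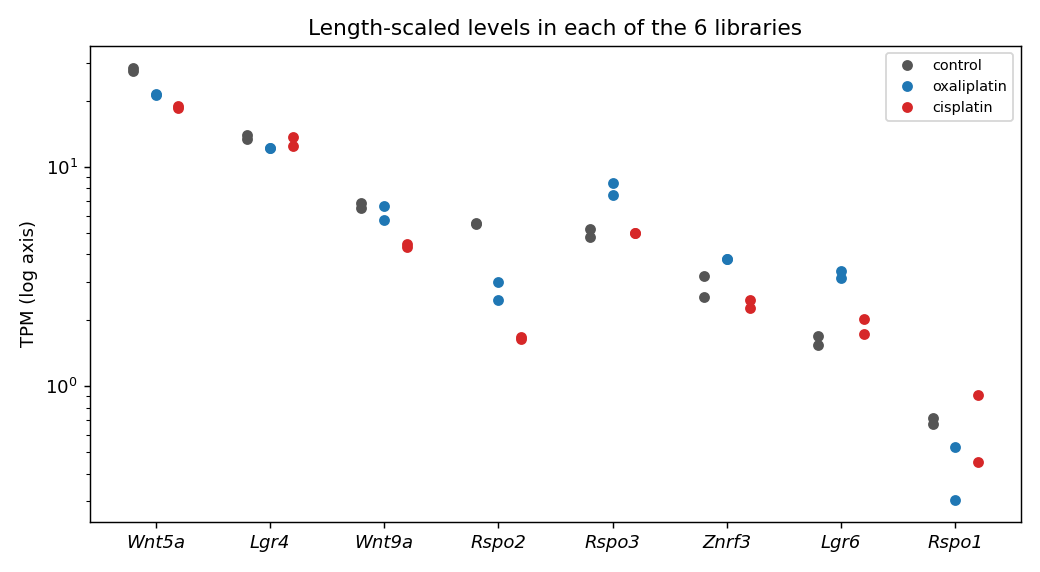
TPM (log axis) of the 7 genes that passed the count filter, and of the related receptor gene Lgr6, in each library, with 1 point per library and colours for control, oxaliplatin and cisplatin. Wnt5a and Lgr4 lie above the other genes in all 6 libraries, while Rspo2 goes from 5.52 TPM in control to 2.74 TPM and 1.66 TPM with the drugs.

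A filter of at least 10 counts in at least 2 libraries left 14956 genes, among them 7 of the 10. Lgr5, Rnf43 and Axin2 did not pass, so a change in them was not tested. Lgr5, the stem cell R-spondin receptor of the gut, had 4 and 3 counts in control, 3 and 2 in oxaliplatin and 3 and 1 in cisplatin cells. Rnf43 had 2 and 0 counts in control, 2 and 2 in oxaliplatin and 0 and 1 in cisplatin cells. Both were at or close to the limit of 3 counts. Axin2, the scaffold gene most often read as a sign of β-catenin activity, had 2 and 6 counts in control, 9.82 and 9 in oxaliplatin and 6 and 8 in cisplatin cells. Its oxaliplatin libraries lay above both controls, a difference that was not tested and that such low counts may not resolve.

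**Figure D2:**
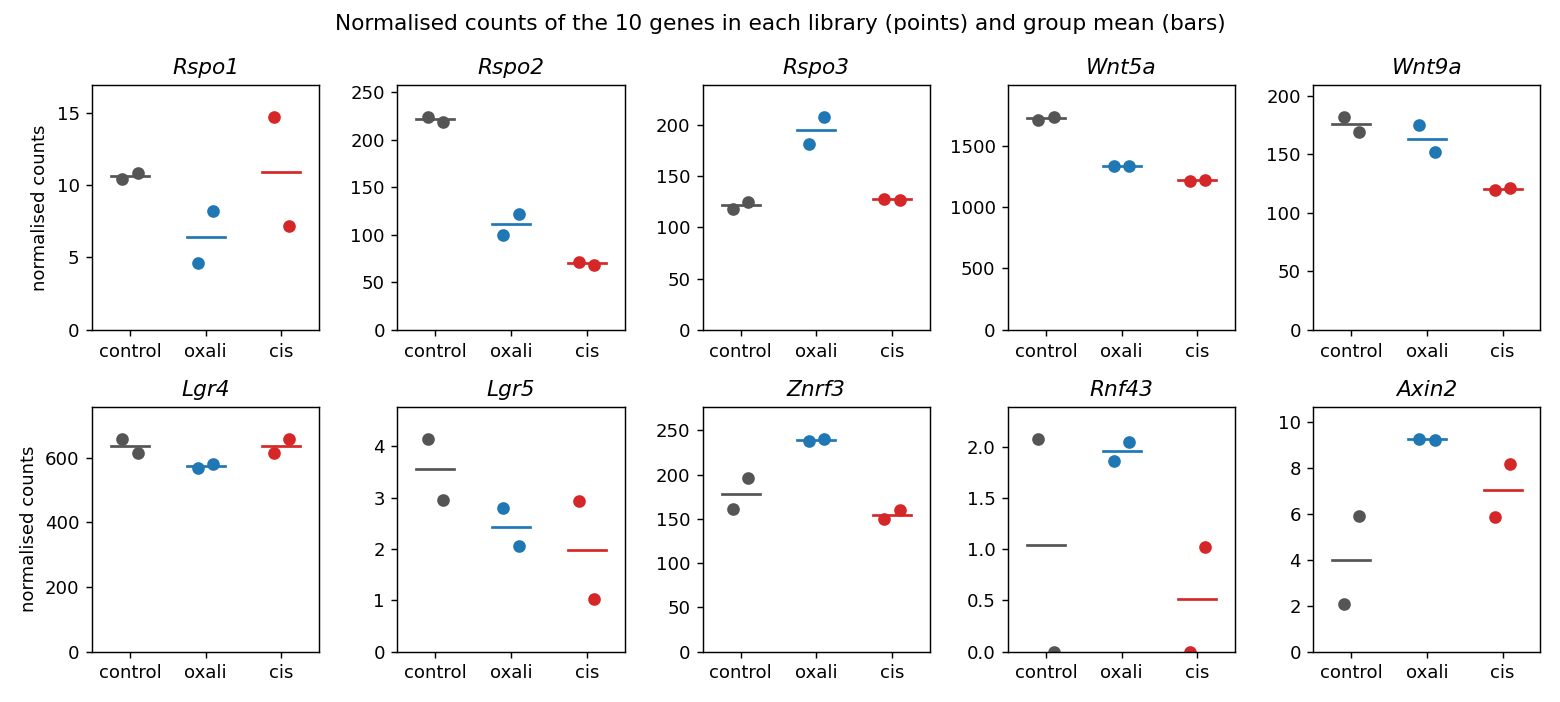
Normalised counts (linear axes from 0, scaled separately for each gene) of the 10 genes, with 1 point per library and a bar at the mean of each group of 2. Rspo2 steps down from control to oxaliplatin to cisplatin, Rspo3 and Znrf3 are highest in oxaliplatin cells, and Lgr5, Rnf43 and Axin2 stay under 10 normalised counts in all libraries.

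The R-spondin genes differed from each other in how they stood after the drugs. Rspo2 (ENSMUSG00000051920, GRCm38 chromosome 15, 43020794 to 43170826, minus strand) encodes a secreted R-spondin that acts through LGR receptors and, in some settings, without them. It had 224 and 219 normalised counts in control, 100.3 and 122 in oxaliplatin and 71.6 and 68.6 in cisplatin cells. The 3 groups did not overlap, and both drug groups lay under the controls. The log2 fold change was -1.66 ± 0.25 (SE) for cisplatin and -1.0 ± 0.24 for oxaliplatin against control. These correspond to levels 3.16-fold and 2.00-fold lower. The difference between the drugs, 0.66 ± 0.26 on the log2 scale, rests on the cisplatin libraries that chose the gene. Over all alternatives the cisplatin value stayed between -1.71 and -1.63 and the oxaliplatin value between -1.14 and -0.86.

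Rspo3 (ENSMUSG00000019880, chromosome 10, 29452416 to 29535867, minus strand), a close relative that also binds LGR4 and drives Wnt signalling in vessels and gut stroma, rose with oxaliplatin. Its normalised counts were 118 and 125 in control, 182 and 208 in oxaliplatin and 128 and 127 in cisplatin cells. Both oxaliplatin libraries lay above the other 4, which were close together. The log2 fold change of oxaliplatin against control was 0.68 ± 0.22 (SE; 1.60-fold, DESeq2 adjusted p = 0.0130). Oxaliplatin cells also exceeded cisplatin cells by 0.61 ± 0.22 in log2 (DESeq2 adjusted p = 0.0288), and the cisplatin value against control was 0.07 ± 0.23. The call against control was lost without control replicate 2, oxaliplatin replicate 2 or either cisplatin library (DESeq2 adjusted p of 0.0697 to 0.335, log2 fold change 0.58 to 0.72), and the call between drugs without either control library or oxaliplatin replicate 2 (DESeq2 adjusted p of 0.0763 to 0.420). DESeq2 gave no adjusted p without control replicate 1 or oxaliplatin replicate 1 in the former, and without oxaliplatin replicate 1 or either cisplatin library in the latter. An antisense gene, Gm48159, overlaps its exons.

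Rspo1 (ENSMUSG00000028871, chromosome 4), an R-spondin with a part in ovary development, was near the filter. It had 10 and 11 counts in control, 5 and 8 in oxaliplatin and 15 and 7 in cisplatin cells, where the cisplatin libraries lie on both sides of the controls. The log2 fold change was -0.73 ± 0.92 after oxaliplatin, -0.78 ± 0.92 between oxaliplatin and cisplatin, and 0.05 ± 0.89 after cisplatin, with no adjusted p given because of the low mean. The cisplatin value was -0.57 without cisplatin replicate 1 and 0.47 without cisplatin replicate 2. The 95% intervals, -2.54 to 1.07 for oxaliplatin against control and -2.58 to 1.02 between the drugs, were the widest of the set. Rspo4, the remaining family member, had a single count in 1 cisplatin library and none elsewhere.

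Rspo3 and Rspo2 were also read against each other within each library, which needs no scaling between libraries. There were 0.528 and 0.572 Rspo3 counts per Rspo2 count in control, 1.81 and 1.71 in oxaliplatin and 1.79 and 1.85 in cisplatin cells. Per exon length, the ratio was 0.873 and 0.946 in control and 2.82 to 3.06 in the 4 drug libraries. Rspo2 was thus the more abundant of the pair in both control libraries and Rspo3 in all 4 drug libraries. The drug groups reached similar ratios with different parts, a higher Rspo3 together with a lower Rspo2 in oxaliplatin cells and mainly a lower Rspo2 in cisplatin cells. No test is given, since the ratio contains the values that chose Rspo2.

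Among 10730 other genes with a mean of at least 100 normalised counts, those whose log2 values over the 6 libraries ran closest to Rspo2 were Abat, Plxna4, Slit3, Ptgfr and St8sia1, with root-mean-square differences of 0.178 to 0.237. Abat, a GABA-degrading enzyme gene, had means of 168, 95.3 and 71.0 normalised counts in control, oxaliplatin and cisplatin cells. Slit3, which encodes a secreted guidance protein, had 1560.0, 1079.9 and 576. Rspo2 spans 150 kb, and the bodies of these 5 genes measured 108, 444, 587, 41.1 and 143 kb in the order named. Among all 1757 tested genes of 100 kb or more, 29.0% were called lower after cisplatin and 7.74% higher, against 7.74% lower and 16.8% higher among the 8577 genes under 25 kb. After oxaliplatin the long genes were called lower in 8.37% and higher in 10.4%. Between the drugs, 23.9% of the long genes were called higher in oxaliplatin cells and 4.38% lower, against 4.62% and 12.1% under 25 kb. Of the other members past the count filter, Znrf3 (169 kb) had a cisplatin value of -0.21 ± 0.21 (-0.06 without control replicate 2 and -0.34 without control replicate 1). Lgr4 (96.6 kb) and Rspo3 (83.5 kb) had 0.00 and 0.07. Wnt9a (26.6 kb), Wnt5a (22.7 kb) and Rspo1 (22.7 kb) had -0.55, -0.50 and 0.05. Among the long genes called higher in oxaliplatin than in cisplatin cells were Znrf3 and, outside the set, Lgr6 (122 kb). The part of gene length in the values of Rspo2, Znrf3 and Lgr6 was not tested.

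Lgr4 (ENSMUSG00000050199, chromosome 2, 109917647 to 110014257), the broadly expressed R-spondin receptor gene, passed no test. It had 657 and 616 normalised counts in control, 567 and 579 in oxaliplatin and 614 and 659 in cisplatin cells. The oxaliplatin libraries were the lowest, but the log2 fold change against control, -0.15 ± 0.11, did not pass (DESeq2 adjusted p = 0.375), nor did that against cisplatin, also -0.15 ± 0.11 (DESeq2 adjusted p = 0.371). The 95% intervals were both -0.37 to 0.07. The cisplatin value was 0.00 ± 0.11.

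Lgr6 is no member of the set but the remaining LGR receptor for R-spondins, known from skin appendages, and it was more abundant than Lgr5. It had 84.1 and 90.6 normalised counts in control, 181 and 171 in oxaliplatin and 99.0 and 114 in cisplatin cells. Both oxaliplatin libraries exceeded the other 4. Its rise with oxaliplatin was 1.01 ± 0.25 in log2 (DESeq2 adjusted p = 4.12e-04), and oxaliplatin cells exceeded cisplatin cells by 0.73 ± 0.24 (DESeq2 adjusted p = 0.0144). Cisplatin against control gave 0.28 ± 0.26 (DESeq2 adjusted p = 0.441). The rise passed in all 10 alternatives that gave it an adjusted p and the call between the drugs in 9 of 10, and none was given without any 1 control or oxaliplatin library, nor between the drugs without any 1 drug library.

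Znrf3 (ENSMUSG00000041961, chromosome 11, 5276324 to 5444847, minus strand) was the ligase gene with counts to test, since Rnf43 was at the count limit. It had 161 and 196 normalised counts in control, 238 and 240.5 in oxaliplatin and 150.0 and 159.6 in cisplatin cells. The oxaliplatin libraries lay above the other 4 and the cisplatin libraries under both controls. Between the drugs the difference was 0.63 ± 0.20 on the log2 scale (1.54-fold higher in oxaliplatin cells, DESeq2 adjusted p = 0.0120). Against control, oxaliplatin gave 0.42 ± 0.20 and did not pass (DESeq2 adjusted p = 0.117), with a 95% interval of 0.02 to 0.82, while by edgeR it passed (adjusted p = 0.0167, the lowest of 13 alternatives that reached 0.555). The call between drugs was lost when any 1 of the 4 oxaliplatin and cisplatin libraries was left out (DESeq2 adjusted p of 0.138 to 0.235, log2 difference 0.58 to 0.67).

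**Figure D3:**
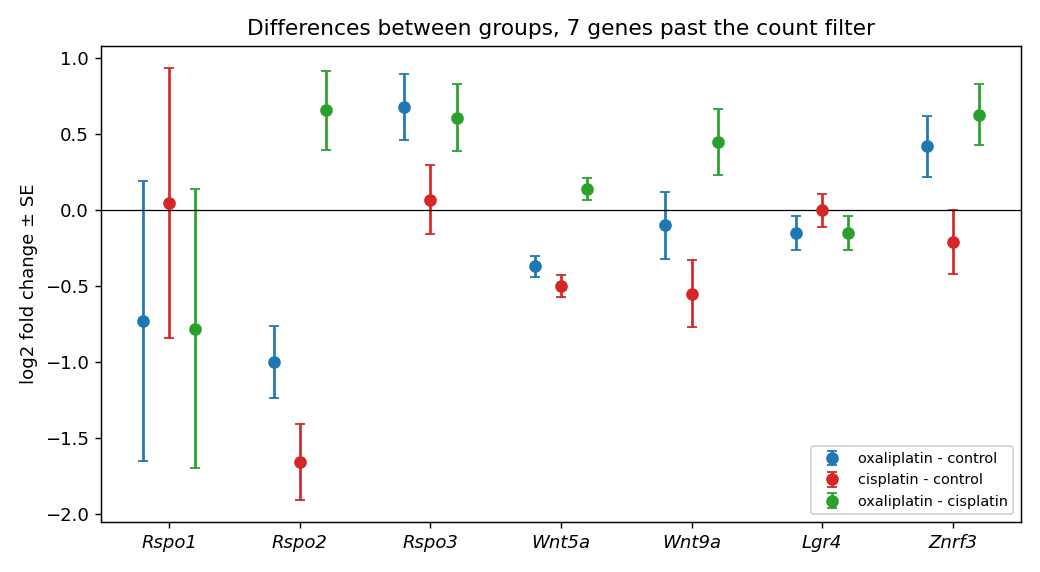
Log2 fold changes with SE bars for the 7 genes past the count filter, in oxaliplatin minus control, cisplatin minus control and oxaliplatin minus cisplatin. Rspo2 lies at -1.0 and -1.66 against control, Rspo3 and Znrf3 are above 0.6 between the drugs, and the bars of Rspo1, at the lowest counts, are the widest.

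Wnt5a (ENSMUSG00000021994, chromosome 14, 28504750 to 28527448) fell after oxaliplatin. Its normalised counts were 1712 and 1734 in control, 1337 and 1336 in oxaliplatin and 1216 and 1218 in cisplatin cells. Replicates nearly coincided, and the groups did not overlap. The log2 fold change of oxaliplatin against control was -0.37 ± 0.07 (SE; DESeq2 adjusted p = 7.67e-06), past the threshold in all 14 alternatives, and the cisplatin value was -0.50 ± 0.07. Between the drugs the difference of 0.14 ± 0.07 did not pass (DESeq2 adjusted p = 0.185, 95% interval -0.01 to 0.28), but passed by edgeR (adjusted p = 0.0332, the lowest of 14 alternatives that reached 0.573). An antisense gene, Gm2670, overlaps its exons, and whether the counting used strand is not stated, so that reads of the pair may not be told apart.

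Wnt9a (ENSMUSG00000000126, chromosome 11, 59306928 to 59333552), a ligand gene known from joint and skeletal development, had 182 and 169 normalised counts in control, 175 and 152 in oxaliplatin and 119.6 and 121 in cisplatin cells. Control and oxaliplatin libraries overlapped, and both cisplatin libraries lay under them. Oxaliplatin against control gave -0.10 ± 0.22 (DESeq2 adjusted p = 0.804, 95% interval -0.53 to 0.33), and the cisplatin value was -0.55 ± 0.22. Oxaliplatin exceeded cisplatin cells by 0.45 ± 0.22, which did not pass (DESeq2 adjusted p = 0.136, unadjusted 95% interval 0.01 to 0.88), while by edgeR it passed (adjusted p = 0.0162, the lowest of 11 alternatives that reached 0.358). Wnt3a, a neighbour of Wnt9a on chromosome 11, had 0 counts in all libraries.

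Rspo2, which decided the choice, is left out of the following counts over the 6 other genes that passed the count filter. For oxaliplatin against control 1 was called higher (Rspo3) and 1 lower (Wnt5a), where 20.2% of all 14956 genes were called, 10.7% higher and 9.50% lower. Oxaliplatin against cisplatin had 2 called higher (Rspo3 and Znrf3), where 19.9% of all genes were called, 8.62% higher and 11.3% lower. No count is given for cisplatin against control, the contrast used in the choice, where 28.1% of all genes were called, 15.7% higher and 12.4% lower. The median log2 fold changes of the 6 genes were -0.13 for oxaliplatin, -0.10 for cisplatin and 0.29 between the drugs, beside medians of all genes at 0. Scaling by total counts changed the split over all genes to 1476 higher and 1563 lower for oxaliplatin, in place of 1607 and 1421, to 1824 higher and 2376 lower for cisplatin, in place of 2355 and 1848, and to 1622 higher and 1364 lower between the drugs, in place of 1289 and 1688. It moved the median of all genes by at most 0.05 on the log2 scale. The contrasts share libraries, so their values for a gene are not independent.

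The rest of the Wnt pathway was read from 98 further genes listed by role, of which 69 passed the count filter. Oxaliplatin against control called 20 of the 69 (29.0%), with 10 in each direction. Cisplatin against control called 24 (34.8%), of which 15 were lower. Oxaliplatin cells had 12 of the 69 higher and 8 lower than cisplatin cells (29.0% called). The shares stood beside 20.2%, 28.1% and 19.9% of all genes. The list medians were -0.05, -0.09 and 0.03 on the log2 scale.

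Of 19 genes for Wnt ligands and their secretion only 8 passed the filter. Wls, which encodes the carrier that takes Wnt proteins to the cell surface, rose with oxaliplatin, from 9798 and 9675 to 10883 and 11015 normalised counts (0.17 ± 0.04 in log2, DESeq2 adjusted p = 1.92e-05). It also exceeded cisplatin cells by 0.14 ± 0.04 (DESeq2 adjusted p = 5.46e-04), a call lost when any 1 of the 4 drug libraries was left out (0.0520 to 0.125). It was the list's only call in either contrast. Against control, cisplatin gave 0 DESeq2 calls in the list, where 28.1% of all genes were called. In that contrast 1 gene had an unadjusted p under 0.05 and 1 gene was called lower by edgeR's quasi-likelihood test. Porcn, the acyltransferase gene needed for Wnt secretion, chosen after its values were seen, had 79 and 61 counts in control, 59 and 57 in oxaliplatin and 41 and 38 in cisplatin cells (cisplatin log2 fold change -0.84 ± 0.38, DESeq2 adjusted p = 0.0721).

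Among 18 genes listed with the receptors and co-receptors, which include the untested R-spondin gene Rspo4, 15 were tested. The Frizzled genes Fzd2 and Fzd6 were lower in cisplatin cells than in both other groups. Fzd2 had 1993 and 1798 normalised counts in control, 1859 and 1851 in oxaliplatin and 1466 and 1397 in cisplatin cells, a fall of 0.41 on the log2 scale after cisplatin (-0.41 ± 0.08, DESeq2 adjusted p = 3.57e-06) and a difference of 0.37 ± 0.08 between the drugs (DESeq2 adjusted p = 3.01e-05). Fzd6 went from 1612 and 1609 in control to 1303 and 1320.0 in cisplatin cells (-0.30 ± 0.07, DESeq2 adjusted p = 3.45e-04), with 1826 and 1756 in oxaliplatin cells (between drugs 0.45 ± 0.07, DESeq2 adjusted p = 1.36e-08). The calls of Fzd2 and Fzd6 passed in all 14 alternatives. Fzd1 was lower after both drugs (-0.36 ± 0.10, DESeq2 adjusted p = 0.00331, and -0.26 ± 0.10, DESeq2 adjusted p = 0.0415), and Fzd4 after oxaliplatin (-0.41 ± 0.15, DESeq2 adjusted p = 0.0350). Ryk, a Wnt5a receptor gene, was higher after oxaliplatin (0.17 ± 0.05, DESeq2 adjusted p = 0.00633) and than in cisplatin cells (0.13 ± 0.05, DESeq2 adjusted p = 0.0441), and Lrp6 lower after cisplatin (-0.16 ± 0.06, DESeq2 adjusted p = 0.0374). The oxaliplatin call of Fzd1 was lost without any 1 control or oxaliplatin library (0.0692 to 0.160) and that of Ryk without control replicate 2 or either oxaliplatin library (0.0885 to 0.279). The cisplatin call of Fzd1 (0.134 to 0.388), the Fzd4 call (0.136 to 0.390) and the Ryk call between drugs (0.0727 to 0.485) were lost without any 1 of the 6 libraries, and the Lrp6 call without any library but control replicate 1 (0.0806 to 0.407). With Lgr6, 4 receptor genes were called after oxaliplatin, 2 in each direction, 4 after cisplatin, all lower, and 4 between the drugs, all higher in oxaliplatin cells. Each count was 26.7% of the 15 tested, beside 20.2%, 28.1% and 19.9% of all genes. Over all genes, 12.4% were called lower after cisplatin and 8.62% higher in oxaliplatin than in cisplatin cells.

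Of 16 genes for secreted and membrane inhibitors 9 were tested. Sfrp2, which encodes a secreted Frizzled-related protein that can bind Wnt, stood at 407 TPM in control, 257 TPM in oxaliplatin and 234 TPM in cisplatin cells. Its normalised counts fell from 6883 and 6862 in control to 4364 and 4425 in oxaliplatin and 4242 and 4065 in cisplatin cells. The log2 fold changes were -0.65 ± 0.05 (DESeq2 adjusted p = 4.24e-42) and -0.73 ± 0.05 (DESeq2 adjusted p = 3.33e-53), past the threshold in all alternatives. Sfrp2 was the only call of this list against control with either drug, 11.1% of the 9 tested, beside 20.2% and 28.1% of all genes. Between the drugs it differed by 0.08 ± 0.05 (DESeq2 adjusted p = 0.210, 95% interval -0.01 to 0.17). DESeq2 called 0 genes of the list between the drugs, where 19.9% of all genes were called. In that contrast 0 had an unadjusted p under 0.05 and 1 was called lower by edgeR.

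All 15 genes of cytoplasmic transduction were tested, with 3 called after oxaliplatin (20%), 7 after cisplatin (46.7%) and 6 between the drugs (40%). Of all genes, 20.2%, 28.1% and 19.9% were called in these contrasts. Amer1, a regulator of the β-catenin destruction complex, had 866 and 1029.6 normalised counts in control, 733 and 713 in oxaliplatin and 552 and 511 in cisplatin cells. It fell after cisplatin by 0.84 (-0.84 ± 0.12, DESeq2 adjusted p = 1.60e-10). Tnks2, a tankyrase gene (-0.25 ± 0.05, DESeq2 adjusted p = 9.09e-06), and Btrc, for the ligase that marks β-catenin (-0.48 ± 0.10, DESeq2 adjusted p = 1.68e-05), also fell after cisplatin, and the casein kinase gene Csnk1e rose (0.37 ± 0.08, DESeq2 adjusted p = 1.69e-05). Csnk1a1 rose with oxaliplatin (0.19 ± 0.04, DESeq2 adjusted p = 1.67e-05). Ctnnb1, the β-catenin gene, was at 14693 and 14990.4 normalised counts in control, 14041 and 14353 in oxaliplatin and 15923 and 16156 in cisplatin cells, and was lower in oxaliplatin than in cisplatin cells (-0.18 ± 0.03, DESeq2 adjusted p = 3.45e-06). The calls given so far for this group held in all 14 alternatives. Ctnnb1 was also higher after cisplatin than in control (0.11 ± 0.03, DESeq2 adjusted p = 0.00463), which was lost without control replicate 1 or either cisplatin library (0.0648 to 0.156). Amer1 was also lower after oxaliplatin (-0.39 ± 0.12, DESeq2 adjusted p = 0.00643), which was lost without control replicate 2 or either oxaliplatin library (0.101 to 0.283). The Dishevelled gene Dvl1 was higher after oxaliplatin (0.25 ± 0.09, DESeq2 adjusted p = 0.0172), lost without any library but cisplatin replicate 1 (0.0525 to 0.396), and after cisplatin (0.27 ± 0.09, DESeq2 adjusted p = 0.00825), lost without either control library or cisplatin replicate 2 (0.0657 to 0.268).

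The nuclear list holds genes of co-activators and of repressors. Those called against control were all lower, 6 of 12 tested after oxaliplatin (50%) and 5 after cisplatin (41.7%). Over all genes, 9.5% and 12.4% were called lower. Bcl9l, a co-activator gene, had 4134 and 4196 normalised counts in control, 3548 and 3593 in oxaliplatin and 2821 and 2883 in cisplatin cells, so that the groups did not overlap (cisplatin -0.55 ± 0.05, DESeq2 adjusted p = 1.88e-24). Its relative Bcl9 had 1059 and 1123, 859 and 754, and 653 and 734 (cisplatin -0.66 ± 0.11, DESeq2 adjusted p = 7.94e-08). Tle2, a Groucho-type co-repressor gene, fell after cisplatin from 416 and 367 to 209 and 178 (-1.02 ± 0.17, DESeq2 adjusted p = 9.26e-08). These cisplatin calls held in all 14 alternatives. After oxaliplatin the values were -0.22 ± 0.05 for Bcl9l (DESeq2 adjusted p = 1.14e-04, or 0.0615 without oxaliplatin replicate 1), -0.44 ± 0.11 for Bcl9 (DESeq2 adjusted p = 7.14e-04, lost without control replicate 2 or oxaliplatin replicate 2, 0.0701 to 0.120) and -0.29 ± 0.08 for the repressor gene Hbp1 (DESeq2 adjusted p = 0.00175, lost without control replicate 1 or either oxaliplatin library, 0.0693 to 0.123). Tle1 was lower after both drugs (-0.33 ± 0.09, DESeq2 adjusted p = 0.00196, and -0.36 ± 0.09, DESeq2 adjusted p = 5.28e-04), lost without control replicate 1 with either drug, without oxaliplatin replicate 1 in the former (0.1 to 0.187) and without cisplatin replicate 2 in the latter (0.0505 to 0.0668). Tle2 was also lower after oxaliplatin (-0.51 ± 0.17, DESeq2 adjusted p = 0.0127), lost without any library but cisplatin replicate 2. Between the drugs 4 were called (33.3%, beside 19.9% of all genes). Bcl9l (0.32 ± 0.05, DESeq2 adjusted p = 1.01e-08, in all 14 alternatives) and Tle2 (0.50 ± 0.18, DESeq2 adjusted p = 0.0226) were higher in oxaliplatin cells. Hbp1 (-0.31 ± 0.08, DESeq2 adjusted p = 6.06e-04) and Ctnnbip1, an inhibitor of β-catenin (-0.28 ± 0.10, DESeq2 adjusted p = 0.0350), were lower. The Tle2 and Ctnnbip1 calls were lost without any 1 of the 6 libraries, and that of Hbp1 without oxaliplatin replicate 2 or cisplatin replicate 2.

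Of 16 genes listed as common β-catenin targets 10 were tested. After oxaliplatin 5 were called, all higher (50%, beside 20.2% of all genes called and 10.7% called higher). After cisplatin 6 were called higher and 1 lower (70%, beside 28.1% of all genes called and 15.7% called higher). Several of these genes answer to many pathways besides Wnt. Ccnd1, the cyclin D1 gene, had 4012 and 4161 normalised counts in control, 5436 and 5242 in oxaliplatin and 7684 and 8087 in cisplatin cells, with log2 fold changes of 0.39 ± 0.05 (DESeq2 adjusted p = 9.94e-13) and 0.95 ± 0.05 (DESeq2 adjusted p = 1.08e-77). Myc, a growth transcription factor gene, rose by 0.59 ± 0.08 (DESeq2 adjusted p = 5.75e-12) and 0.99 ± 0.08 (DESeq2 adjusted p = 2.37e-33). The adhesion receptor gene Cd44 rose by 0.62 ± 0.06 (DESeq2 adjusted p = 6.20e-22) and 0.68 ± 0.06 (DESeq2 adjusted p = 2.28e-26), and Id2, an inhibitor of helix-loop-helix factors, by 0.75 ± 0.12 (DESeq2 adjusted p = 2.05e-08) and 0.90 ± 0.12 (DESeq2 adjusted p = 3.87e-12). The Notch ligand gene Jag1 rose with cisplatin by 0.81 ± 0.12 (DESeq2 adjusted p = 1.29e-09), and oxaliplatin against control gave 0.20 ± 0.13 (DESeq2 adjusted p = 0.259). The calls of these 5 genes held in all 14 alternatives.

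Ccn4, first described as a Wnt-induced secreted protein gene, was called in opposite directions. It had 4298 and 4598 normalised counts in control, 4935 and 5040.1 in oxaliplatin and 3669 and 3696 in cisplatin cells. Oxaliplatin gave 0.16 ± 0.05 (DESeq2 adjusted p = 0.00942, lost without control replicate 1 or either oxaliplatin library, 0.133 to 0.239) and cisplatin -0.27 ± 0.05 (DESeq2 adjusted p = 3.61e-06). Between the drugs it differed by 0.44 ± 0.05 (DESeq2 adjusted p = 9.00e-15), in all 14 alternatives.

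Among targets that are themselves Wnt inhibitors, Apcdd1, for a membrane protein that binds Wnt, had 178 and 201 normalised counts in control, 195 and 199.6 in oxaliplatin and 267 and 285 in cisplatin cells. Both cisplatin libraries lay above the other 4. It was higher after cisplatin (0.54 ± 0.18, DESeq2 adjusted p = 0.0141) and oxaliplatin cells lay under cisplatin cells (-0.48 ± 0.18, DESeq2 adjusted p = 0.0359), while oxaliplatin against control gave 0.06 ± 0.19 (DESeq2 adjusted p = 0.883). Both calls were lost without any 1 of the 6 libraries (0.0701 to 0.255 and 0.0880 to 0.372), and the call between the drugs also with no filter on low counts (0.0630) and with total-count scaling (0.0558). DESeq2 gave Nkd1 and Notum, at lower counts, no adjusted p for oxaliplatin. Nkd1, a negative feedback gene, had 21 and 26 counts in control, 18 and 15 in oxaliplatin and 18 and 13 in cisplatin cells. Notum, whose product inactivates Wnt, had 24 and 20.0, 32 and 39, and 19 and 15.4. The oxaliplatin libraries were the highest for Notum, and its log2 fold change was 0.64 ± 0.54. Apcdd1, Nkd1 and Notum were chosen here after their values were seen. Sp5 had 0 counts in all libraries, and Lef1, a nuclear effector and target, had 2.46 to 7 counts. A change in Nkd1, Notum or Lef1 could be missed at such counts.

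**Figure D4:**
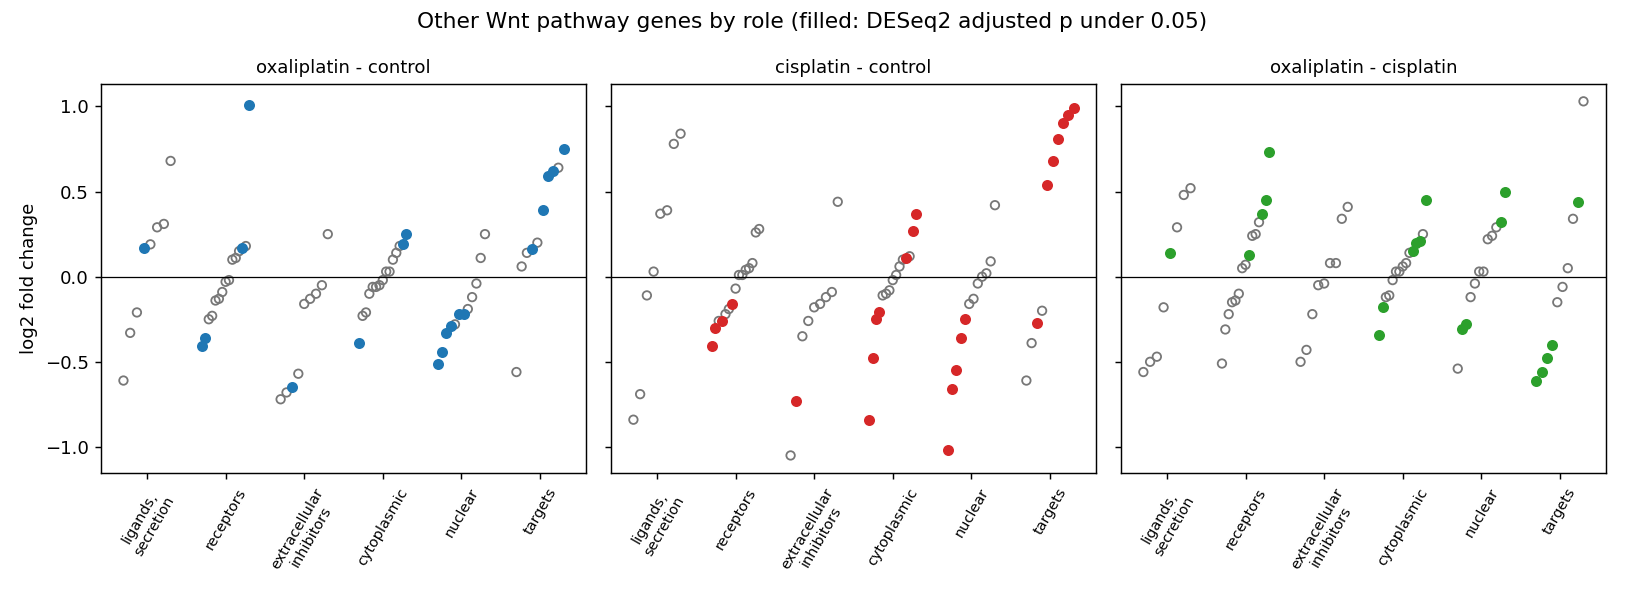
Log2 fold changes of the 69 further Wnt pathway genes past the count filter, grouped by role, for each of the 3 contrasts, with filled points for a DESeq2 adjusted p under 0.05. Against control with both drugs, called nuclear genes, of co-activators and repressors alike, lie under 0 and most called targets lie above 0. Between the drugs, all 4 called receptor genes are higher in oxaliplatin than in cisplatin cells.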

How the data were processed

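RNA-seq of 6 TRAMP-C2 libraries was analysed, grouped by their titles. The authors deposited expected counts per gene from RSEM, unscaled and not all whole. The submitters' processing notes name STAR 2.5.3a, RSEM 1.3.0 and GRCm38.p6, while the counter named in the published methods is a different one. The annotation and strand setting of this table are not given in the sources used here. Gene identifiers, with versions removed, were matched to GENCODE M21 (GRCm38), where 54409 of 54446 matched.

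Counts were rounded, and the 14956 genes that reached 10 counts in 2 or more libraries were kept. DESeq2 (1.42.0, R 4.3.3) was run once over the 6 libraries, with treatment group as its only term. Size factors were 0.964 to 1.08, tests were two-sided Wald tests, and P values were adjusted by Benjamini-Hochberg over all genes, at a threshold of 0.05. Independent filtering used its default level of 0.1. TPM was computed from expected counts and exon-union length. The script was tested on simulated data.

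The 10 genes and all lists were chosen with earlier results of these data known. From each role list the text names up to 4 called genes with the smallest adjusted p per contrast, and for Rspo2 the 5 nearest patterns. Alternatives were edgeR 4.0.16 (quasi-likelihood), other scalings, filters and samples, a replicate block, and leaving out each library, where a lone library was assumed to vary like the other groups. Some marker genes are not reported here.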

Additional observations from a re-analysis of the deposited data

How the results depend on the processing

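edgeR called 4618 genes for oxaliplatin, 6112 for cisplatin and 4773 between the drugs, in place of 3028, 4203 and 2977. Of the further Wnt genes it called 29, 26 and 31, in place of 20, 24 and 20. Deviations of libraries with the same replicate number correlated weakly (0.0715, -0.0477 and -0.191 over 10731 genes). Whether such samples were handled together cannot be told from this. With the replicate block, 1958 genes were called for oxaliplatin, 2833 for cisplatin and 1861 between the drugs. In that fit the calls of Rspo3 (DESeq2 adjusted p = 0.0929 and 0.152) and, between the drugs, of Znrf3 (0.0811) and Lgr6 (0.105) were not past the threshold. Nor were some of the calls that leaving out a library also ended, such as Ryk after oxaliplatin (0.0546) and Apcdd1 after cisplatin (0.0818) and between the drugs (0.166).

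Leaving out 1 library gave 1187 to 2139 calls for oxaliplatin, 2046 to 2974 for cisplatin and 1160 to 2439 between the drugs, and 8 to 18, 16 to 21 and 9 to 16 for the further Wnt genes. The cause was not tested beyond the smaller number of libraries. No called value of the 10 genes changed sign. The uncalled cisplatin values of Rspo1 (-0.57 to 0.47) and Lgr4 (-0.05 to 0.05) took both signs, as did small uncalled values of other named genes. For Apcdd1, oxaliplatin against control gave -0.02 without control replicate 1. Total-count scaling gave -0.02 for Wls, -0.01 for Ryk and -0.02 for Hbp1 after cisplatin, and 0.02 for Dvl1 between the drugs. Leaving out 1 library moved Csnk1e from -0.01 to 0.08 (below 0 without control 2 or oxaliplatin 1) and Fzd2 from -0.10 to 0.05 (above 0 without control 1) after oxaliplatin, and Hbp1 from -0.02 to 0.07 (below 0 without cisplatin 2) after cisplatin. Between the drugs it moved Dvl1 from -0.09 to 0.05 (above 0 without oxaliplatin 2 or cisplatin 2), Tle1 from -0.03 to 0.09 (below 0 without oxaliplatin 2) and Cd44 from -0.12 to 0.01 (above 0 without cisplatin 2). Of 58 calls of further genes named for the smallest adjusted p, not counting those of Apcdd1, 33 passed in every alternative that gave an adjusted p. Counts under 10 limit Lgr5, Rnf43 and Axin2.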
